A study of Mus musculus with 12 samples.

Results

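The members are 8 genes of the red cell membrane and its blood groups: Rhd, Rhag, Icam4, Epb42, Ank1, Sptb, Slc4a1 and Kel. They were taken by gene symbol, and 8 of 8 were listed among the 31053 genes of the embryonic and the 22597 genes of the postnatal matrices. The data are droplet single-cell RNA sequencing of dissociated mouse liver at the embryonic stage E16.5 (days of gestation) and at P3 (days after birth), from crosses of mice with the Nodder (Ndr) allele of Jag1, which encodes a ligand of Notch receptors; the allele is a missense mutation. The labels give 6 groups of 2 animals, each stage having Jag1Ndr/Ndr, Jag1Ndr/+ and Jag1+/+ animals. All were offspring of heterozygous parents, homozygous P3 pups were picked by their jaundice, and TrypLE Express was added to the digest at E16.5 but not at P3.

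The 12 deposited matrices held 9 libraries. The matrices labelled E16.5 wild type 2 and E16.5 heterozygous 2 were identical, so this library is called "shared" and its genotype is wild type or heterozygous. At P3, 6 pairs of matrices shared 53.4% to 100.0% of the barcodes of the smaller one, 5 of them pairs with different genotype labels. Apart from these and the identical E16.5 matrices, no pair shared more than 1.72%. The 4 distinct P3 libraries are called A (labelled wild type 1, genotype unclear), B (labelled wild type 2, genotype unclear), C (homozygous 1 after removal of the barcodes of A) and D (heterozygous 1). Barcodes with at least 1000 unique molecular identifiers (UMIs, counted RNA molecules) and at most 15% mitochondrial UMIs numbered 15024 to 29034 a library, with a median of 2961 to 9256 UMIs. Erythroid-like cells made up 59.3% to 70.9% of kept cells at E16.5 and 40.9% to 59.4% at P3, and hepatocyte-like cells 3.97% to 8.16% and 1.18% to 3.73%. A P3 cluster classed as mesenchymal-like was led by Ins2 and Ins1, the insulin genes of pancreatic islets, and spleens were dissected beside the livers at P3; whether they entered these libraries is not given in the sources used here.

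The red cell membrane is held in shape by a skeleton of spectrin under the lipid bilayer. Band 3, the chloride-bicarbonate exchanger encoded by Slc4a1, is tied to this skeleton by ankyrin (Ank1), which binds beta-spectrin (Sptb), and by protein 4.2 (Epb42), a transglutaminase relative without enzyme activity. Rhd encodes a polypeptide of the Rh blood group, Rhag the Rh-associated glycoprotein that the Rh complex needs to reach the surface, and Icam4 the adhesion molecule of the Landsteiner-Wiener blood group. Kel encodes the Kell blood group protein, a metalloendopeptidase. The fetal liver is the main site of definitive red cell formation, and in it erythroid cells fill with globin messenger RNA as they mature.

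In the GRCm38 annotation (GENCODE M21) the genes lie on 8 chromosomes: Rhd at chr4:134864536-134896172, Rhag at chr17:40811126-40840754, Icam4 at chr9:21029373-21030595, Epb42 at chr2:121017891-121037072, Ank1 at chr8:22974844-23150497, Sptb at chr12:76580488-76710547, Slc4a1 at chr11:102348824-102366203 and Kel at chr6:41686330-41704339. Epb42 shares its chromosome with Jag1 (chr2:137081456-137116644). The whole of Icam4 is overlapped by the antisense gene Gm47079, and Ank1 in part by the antisense gene Gm15816. Whether the authors' counting used strand is not given in the sources used here, so the values of both genes are uncertain to that extent. Over all E16.5 libraries Gm47079 held 487 and Gm15816 held 212 UMIs, and neither was listed at P3. Kel is overlapped on its own strand by Gm37527, over 3547 bases, which was listed at neither stage. RefSeq promoters (GRCm38) were matched for 6 of the 8. The 250 bases before each start were searched on both strands for AGATAA or TGATAA or AGATAG or TGATAG, spellings of the motif of GATA factors. A match was found in 5 of 6 (Rhd, Rhag, Icam4, Epb42 and Kel, not Sptb), and 26.5% of all 32851 promoters of this length hold one. Of the same 6, Sptb alone held CCACACCC or CCACCCC, spellings of the motif of KLF factors, against 16.2% of all promoters. CAGNTG, which covers only a part of the spellings of the E-box, was found in 2 of 6 (Epb42 and Sptb), against 44.8% of all promoters. Other spellings of the E-box were not searched. Rhd, Rhag and Kel are shown 5′ to 3′ with the match in capitals, as examples that hold a match. The windows of Rhag and Kel reach a few bases into annotated transcripts, and those of Icam4 and Epb42, which reach further in, are not shown.
Rhd (chr4:134864286-134864535, plus strand): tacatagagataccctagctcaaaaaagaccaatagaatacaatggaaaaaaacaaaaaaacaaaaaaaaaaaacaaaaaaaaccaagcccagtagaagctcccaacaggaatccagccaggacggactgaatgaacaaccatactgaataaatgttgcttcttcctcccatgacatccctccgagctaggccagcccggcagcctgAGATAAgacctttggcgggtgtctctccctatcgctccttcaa
Rhag (chr17:40810899-40811148, plus strand): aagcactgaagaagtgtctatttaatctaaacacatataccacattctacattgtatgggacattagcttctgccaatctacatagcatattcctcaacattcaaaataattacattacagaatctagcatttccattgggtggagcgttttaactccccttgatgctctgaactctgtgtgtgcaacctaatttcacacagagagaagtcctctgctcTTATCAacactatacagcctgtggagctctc
Kel (chr6:41704326-41704575, minus strand): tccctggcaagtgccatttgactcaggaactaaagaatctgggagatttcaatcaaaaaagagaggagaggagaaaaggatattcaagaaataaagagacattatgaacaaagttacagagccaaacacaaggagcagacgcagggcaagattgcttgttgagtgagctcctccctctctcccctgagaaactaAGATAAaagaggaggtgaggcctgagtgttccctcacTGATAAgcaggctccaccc
The match begins 43 bases before the start in Rhd, 31 in Rhag, and 56 and 19 in Kel. A match is a spelling in the sequence, not a site.

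At P3 most members already stood above the level of neutrophil-like cells in the cluster of the erythroid-like class with the least globin, and Slc4a1 and Epb42 least so. The 7 erythroid-like clusters were put in order by their median share of globin UMIs, which uses no member. The first, led by Mt2, Car1 and C1qtnf12, had a globin share of 0.398% and also held Kit, a receptor of early progenitors, at 103 ± 38.9 CPM (UMIs of the gene per 1000000 UMIs; SD, n = 4). This cluster had 0 erythroid markers among its 10 leading genes, and at clustering resolution 0.5 the cluster led by the same genes was left unnamed, so its place in the erythroid-like class depends on the clustering. Neutrophil-like cells of the same libraries, which should lack the members, served as background. Hepatocyte- and mesenchymal-like cells at P3 held a larger part of the erythroid-like level, so ratios to background depend on the class chosen. By means, the first cluster held Slc4a1 at 55.0 and Epb42 at 17.6 CPM, against 763 and 105 over all P3 erythroid-like cells. These parts were smaller than any member's part in hepatocyte-like cells, given below. For Icam4, Kel and Sptb the part lay within the hepatocyte-like range, and for Rhd, Rhag and Ank1 above it. Because clusters were built from the same cells, these values are a description with no test.

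In that first cluster Rhd stood at 258, 279.5, 318 and 375 CPM in libraries A, B, C and D, against 5.48, 11.4, 23.5 and 34.3 CPM in neutrophil-like cells. The ranges did not overlap, and the ratio within a library was 10.9- to 47.1-fold. Rhag stood at 144, 113, 90.8 and 134 CPM, against 2.48, 3.19, 5.03 and 9.66 CPM. Icam4 was 8.24- to 33.1-fold and Ank1 13.9- to 32.4-fold above the neutrophil-like level, Sptb 8.18- to 26.8-fold and Kel 7.87- to 17.7-fold. Slc4a1 stood at 28.3, 32.9, 65.0 and 93.7 CPM against 14.3, 24.1, 47.8 and 59.6 CPM, 1.36- to 1.98-fold higher in the same library, and the ranges overlapped. Epb42 was 3.61- to 4.42-fold higher at 17.6 ± 8.92 CPM. Band 3 and protein 4.2, which bind each other in the membrane, were the 2 members with the smallest ratios. In the erythroid-like cluster with the least globin at E16.5, the ratios within a library ran from 0.937 (Epb42) to 4.80 (Rhag). There Rhd was 2.92- to 3.73-fold and Slc4a1 0.964- to 1.67-fold the neutrophil-like level. The neutrophil-like level itself was higher at E16.5, with a mean for Rhd of 129 CPM against 18.7 at P3. Rhd in the cluster with the least globin had a mean of 432 CPM at E16.5 and 308 at P3. For every member both means were higher at E16.5, so the ratios of the stages cannot be set against each other as a difference in onset.

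In the next cluster, led by Smim1 and Gstm5 with a globin share of 9.60%, every member was higher. How many of all genes rose or fell between neighbouring clusters was not counted. Slc4a1 went from 55.0 ± 30.5 to 754 ± 163 CPM (SD, n = 4), Epb42 from 17.6 ± 8.92 to 99.4 ± 31.4, and Rhd from 308 ± 51.5 to 682 ± 78.0. The ranges over the 4 libraries did not overlap for any of these 3. Since globin takes a growing share of the total, later clusters are given as CPM of the UMIs that are not globin. On that scale the cluster led by Hemgn and Alad (globin share 50.7%) held the peak of Icam4 and Sptb in 4 of 4 libraries and of Rhd in 3 of 4, at 940.2 ± 54.5, 1048 ± 225 and 2362 ± 147. The cluster led by Tmcc2 and Xpo7 (globin share 76.3%) held the peak of Slc4a1, Epb42, Rhag and Kel in 4 of 4 libraries, at 5765 ± 1465, 854 ± 179.5, 738 ± 131 and 515 ± 207. Ank1 was divided between them, 2 libraries each. This order depends on the scale: in CPM with globin in the total, all 8 members peaked in the Hemgn and Alad cluster in 4 of 4 libraries. Between these lies a cluster at 60.7% globin, led by Hemgn, Alad and Car2, in which 7 of 8 members (not Icam4) had a lower mean than in both neighbours, with Rhd at 937 ± 241 and Slc4a1 at 1577 ± 569.8; 9.64% of its barcodes had been called doublets and removed. In the last cluster, at 90.1% globin, Icam4 was down to 39.8 ± 23.4, Kel to 35.8 ± 19.2 and Slc4a1 to 1230.2 ± 760.1 CPM without globin.

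**Figure D1:**
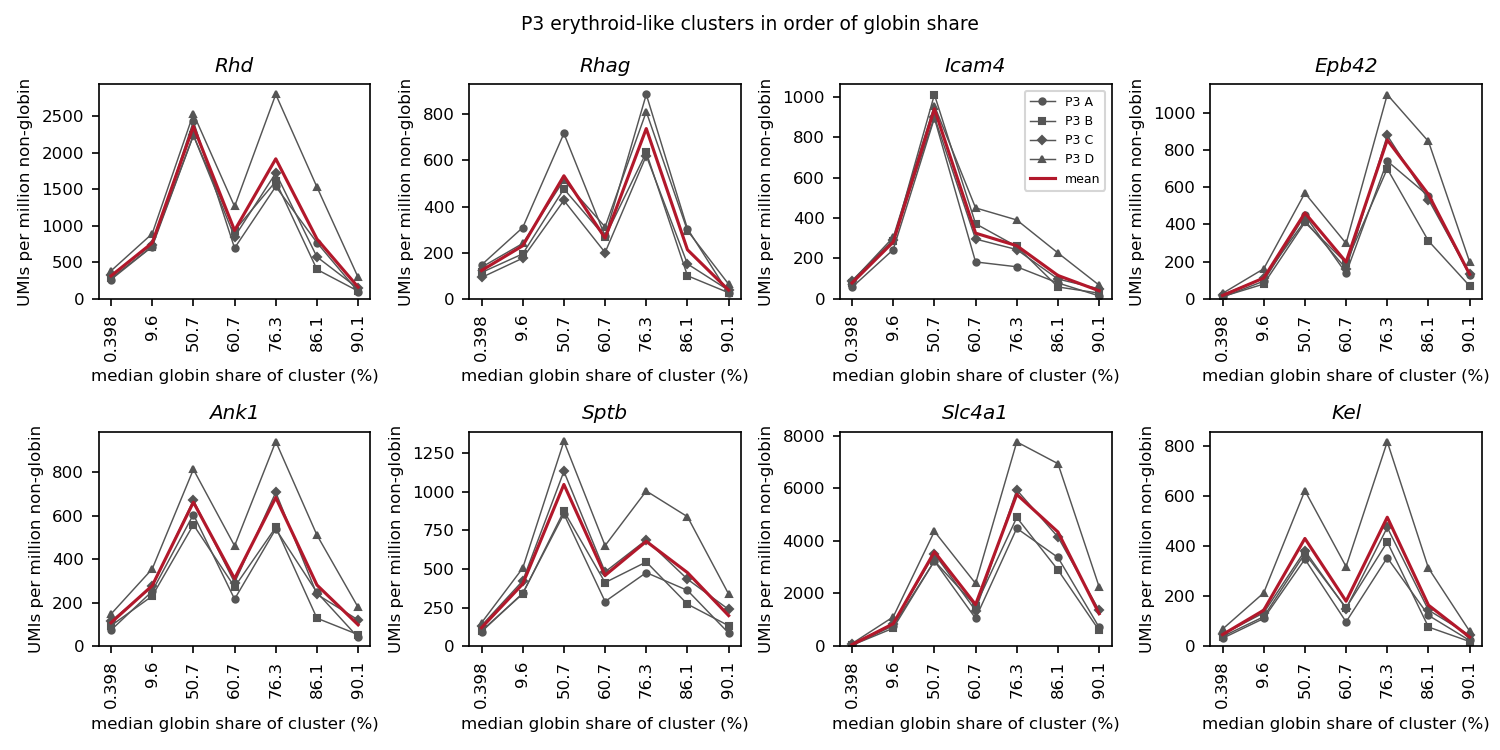
CPM without globin of each member in the 7 P3 erythroid-like clusters, in order of median globin share; grey lines are the 4 libraries and the red line their mean. Icam4 and Sptb peak at 50.7% globin, Slc4a1 and Epb42 at 76.3%, and each of the 8 has a lower mean in the last cluster than at its peak.

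Erythroid-like cells were also cut into 5 bins of globin share, with the same edges in every library, given as CPM without globin. At P3, Icam4 without globin was 163 ± 49.7 CPM in the lowest bin (SD, n = 4), 956 ± 161 in bin 2, 853 ± 199 in bin 3, 259.7 ± 96.6 in bin 4 and 60.2 ± 22.1 in the highest bin. Slc4a1 was highest later, at 396 ± 193, 3651 ± 751, 5334 ± 1347, 5447 ± 1889 and 3314 ± 1779. Rhag peaked in bin 3 in 4 of 4 libraries, at 743 ± 118, and so did Kel, at 566 ± 209. Epb42 peaked in bin 4 in 3 of 4 libraries, Rhd and Ank1 in bin 3 in 3 of 4, and Sptb in bin 2 in 3 of 4. Icam4 was divided between bins 2 and 3, and Slc4a1 between bins 3 and 4, 2 libraries each. With globin in the total, 7 members peaked in bin 2 in 4 of 4 P3 libraries and Epb42 in 2 of 4. At E16.5, without globin, Sptb was highest in bin 2 in 5 of 5 libraries, Rhd, Rhag, Icam4, Ank1 and Kel in bin 2 in 4 of 5, Slc4a1 in bin 2 in 3 of 5 and bin 3 in 2 of 5, and Epb42 in bin 2 in 2 of 5 and bin 3 in 3 of 5. The cells of the lowest bin at E16.5 had a median globin share of 17.9% to 29.2%, against 0.560% to 6.70% at P3, so the lowest bin does not hold like cells at the 2 stages. Depth also differed between E16.5 bins. The median UMIs in bin 2 and bin 1 were 2812.5 and 16123 in homozygous 1, 4606.5 and 13560.5 in heterozygous 1, and 3542 and 4493 in wild type 1. They were 5050 and 3679 in the shared library and 5000.5 and 4093 in homozygous 2. The part of depth in the peaks was not tested.

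The highest bin was tested against the lowest within libraries (edgeR quasi-likelihood on summed counts without globin, Benjamini-Hochberg over all genes). At P3, 7 members were called higher and 1 lower, where 68.8% of genes were called in all, and 33.0% of 11596 genes were called higher and 35.9% lower. The median of the 8 log2 fold changes was 1.42 beside -0.23 for all genes. Genes highest in other cell types rose too in this contrast, such as Slc4a4 (4.88), F13a1 (4.64) and Sptbn1 (2.98), and the median of the 11 paralogs tested was 2.55; the part of RNA from other cells in the members' values was not tested. Slc4a1 rose by a log2 fold change of 4.01 ± 0.22 (adjusted p = 1.29e-13) and Epb42 by 3.87 ± 0.23 (adjusted p = 5.87e-13). Kel rose by 1.66, Sptb by 1.52, Ank1 by 1.32, Rhag by 1.15 and Rhd by 1.00 (log2; largest adjusted p of these 5 = 3.52e-04). Icam4 fell, at -0.48 ± 0.17 (adjusted p = 0.0147), a call lost without library B (-0.25, adjusted p = 0.169) or D (-0.46, adjusted p = 0.0612), and by DESeq2. At clustering resolution 0.5, which leaves the Mt2 and Car1 cluster out of the class, Slc4a1, Epb42, Kel and Sptb rose and Icam4 fell (-1.61), and Rhd (0.17), Ank1 (0.43) and Rhag (0.52) did not pass.

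At E16.5, 6 members were called higher and 0 lower, beside 53.9% of 12323 genes called, 27.3% higher and 26.6% lower. The shared library had only 3 cells in the highest bin, which was left out, so this library adds nothing to the contrast. Epb42 rose by 2.30 ± 0.27 (adjusted p = 5.03e-05), Slc4a1 by 2.096 ± 0.30 (adjusted p = 1.87e-04) and Kel by 1.35 ± 0.29 (adjusted p = 0.00257) on the log2 scale. Sptb and Ank1 rose by 1.12 and 0.91. Rhd rose by 0.74 ± 0.23 (adjusted p = 0.0168), a call lost without wild type 1, heterozygous 1 or homozygous 1 (adjusted p = 0.0781, 0.121 and 0.0515). Icam4 at 0.42 ± 0.22 (adjusted p = 0.13) and Rhag at 0.04 ± 0.17 (adjusted p = 0.845) did not pass, though Icam4 did without homozygous 2 (0.73). At clustering resolution 0.5 Icam4 (-0.36, adjusted p = 0.0498) and Rhag (-0.41, adjusted p = 0.0196) were called lower, and Rhd (-0.01) and Ank1 (0.30) were not called. These calls depend on the scaling: main scaling (TMM) put 50.7% of calls higher at E16.5 and 47.9% at P3, and scaling by the total without globin 22.9% and 28.6%, with the median of all genes at -0.75 and -1.19. Under that scaling Slc4a1, Epb42 and Kel still rose at both stages and Rhag fell at E16.5 (-0.62, adjusted p = 0.00578). The rises of Sptb (0.45), Ank1 (0.25) and Rhd (0.08) at E16.5 and of Ank1 (0.38), Rhag (0.21) and Rhd (0.06) at P3 were no longer called, and at P3 Sptb still rose and Icam4 fell (-1.42).

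The rise across bins was tested for a difference between the stages, with 31.8% of 12727 genes called. It was larger at P3 for Slc4a1, by 1.84 ± 0.39 (adjusted p = 0.00109), for Epb42, by 1.50 ± 0.38 (adjusted p = 0.00467), and for Rhag, by 1.03 ± 0.30 (adjusted p = 0.0123), on the log2 scale. For Icam4 the contrast was lower at P3, at -0.98 ± 0.30 (adjusted p = 0.0154). Rhd, Kel, Ank1 and Sptb did not pass, with differences of 0.18, 0.22, 0.34 and 0.33.

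**Figure D2:**
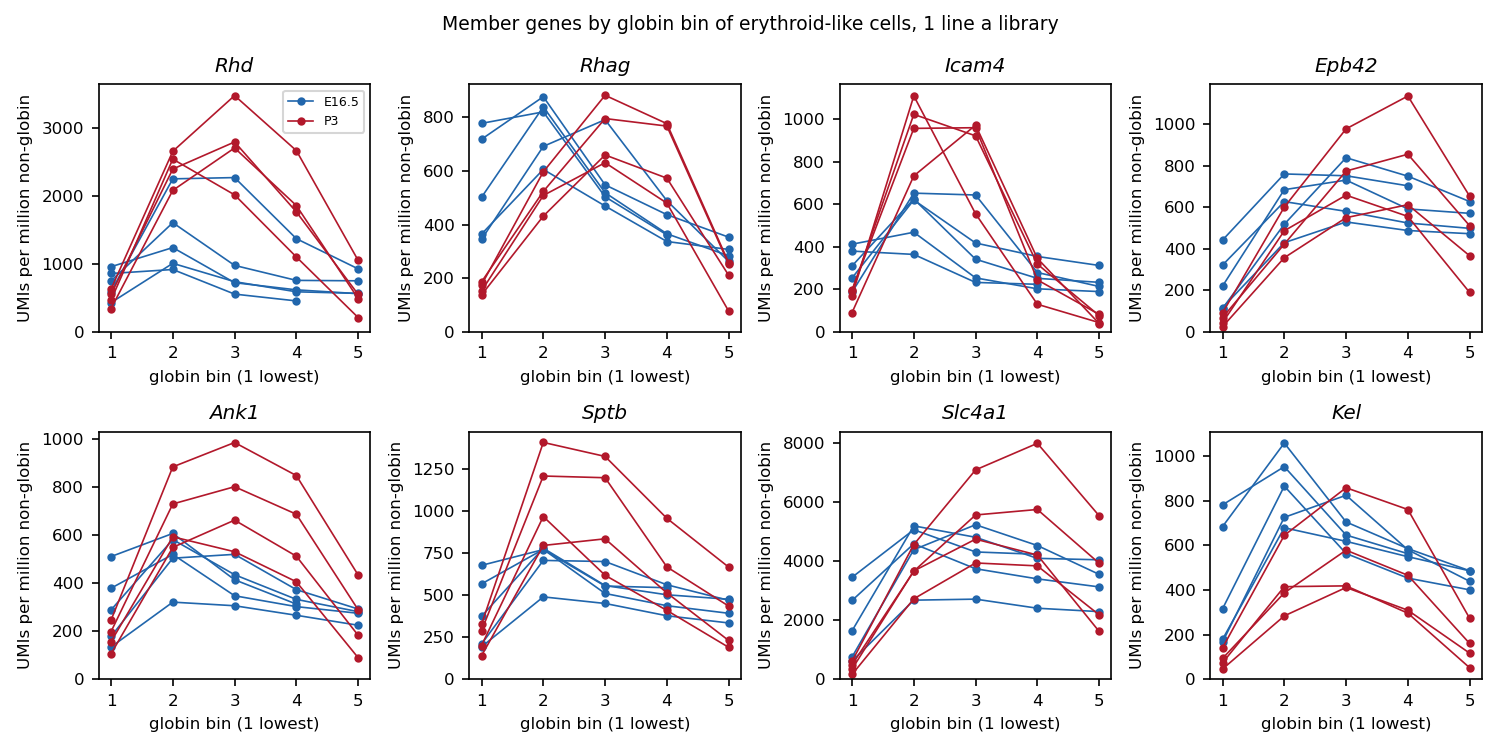
CPM without globin of each member in 5 bins of globin share, 1 line a library (blue, E16.5; red, P3; bins under 50 cells left out). At P3 Icam4 drops from a mean of 853 in bin 3 to 259.7 in bin 4, while Slc4a1 stays at 5334 and 5447.

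Outside the erythroid-like class the 2 stages differed in what could be read. At E16.5 the members stood in every other class at much of the erythroid-like level: 99.2% to 124% in macrophage-like, 67.3% to 90.8% in hepatocyte-like and 33.7% to 50.03% in neutrophil-like cells (range of the 8 genes' medians over 5 libraries). At P3 the shares were 3.07% to 4.44% in neutrophil-like, 4.55% to 8.85% in monocyte-like, 10.5% to 20.0% in macrophage-like, 26.9% to 43.8% in endothelial-like, 39.9% to 57.1% in hepatocyte-like and 35.7% to 63.2% in mesenchymal-like cells. The 8 genes moved as a block from class to class, and no other erythroid gene is set beside them here. After thinning each cell to 1000 UMIs, 22.2% to 39.8% of neutrophil-like cells at E16.5 and 90.9% to 97.5% at P3 held no UMI of any member, against 3.76% to 25.5% and 19.2% to 56.8% of erythroid-like cells. Unthinned, the shares were 73.0% to 84.7% and 10.8% to 35.1% at P3, and 0.0537% to 0.561% of neutrophil-like and 0% to 0.0421% of erythroid-like cells at E16.5, where almost every cell of both classes held a member. Erythroid-like cells held 65.2% to 76.7% of each member's UMIs at E16.5, against 46.9% to 63.5% of all UMIs, and 85.3% to 93.1% against 37.8% to 57.8% at P3. Whether the E16.5 values outside the erythroid-like class come from those cells or from RNA or cells of the erythroid class was not tested.

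To find members that left this block, each was set against the median share of the other 7 in the same class and library. At E16.5, 0 of 72 gene and class pairs were over 2 times that median in every library. At P3, 2 of 96 were. Sptb in megakaryocyte-like cells stood at 86.1, 87.2, 136 and 124 CPM in libraries A to D, 5.16 to 7.55 times the other members' share. Rhd in the same cells was at 27.3, 30.1, 30.7 and 35.0 CPM. Icam4 in them, at 22.4, 25.8, 21.3 and 39.2 CPM, was 1.44 to 2.65 times the others' share, over 2 times in 3 of 4 libraries. Icam4 in basophil- and mast-like cells stood at 39.9, 53.3 and 52.4 CPM in the 3 libraries with at least 50 such cells, 2.27 to 6.44 times the others' share, from 16 to 46 UMIs a library. Kel in those cells, at 14.8, 37.1 and 9.83 CPM, was over 2 times the others' share in 2 of the 3. Ank1 in dendritic-like cells was so in 2 of 4 libraries, and Kel in dendritic-like and Epb42 in T and NK-like cells in 1 of 4 each. No test was made of these.

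**Figure D3:**
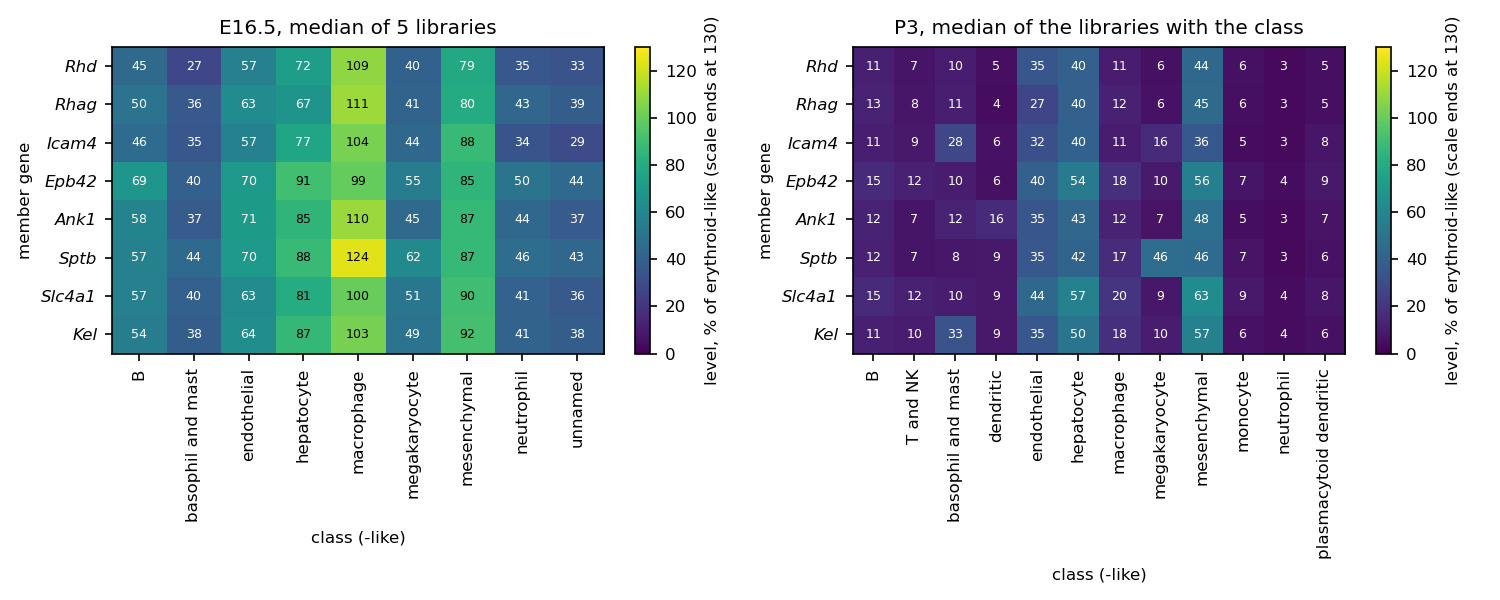
Level of each member in each cell class as a percentage of its erythroid-like level, median over libraries, at E16.5 (left) and P3 (right). Sptb in P3 megakaryocyte-like cells is at 46.3%, and the neutrophil-like column at P3 runs from 3.07% to 4.44%.

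The relatives of the members each had their highest mean outside the erythroid-like class, though several were very low in every class. That class was not always the same at both stages, as for Ank2, F13a1, Icam1 and Slc4a2. Of 18 paralogs listed, Ank3, another ankyrin, was highest in P3 megakaryocyte-like cells at 173 ± 54.1 CPM (SD, n = 4) and at 0.491 ± 0.221 in erythroid-like cells. Sptbn1, a non-erythroid beta-spectrin, was at 519.6 ± 101 CPM in endothelial-like and 5.93 ± 0.734 in erythroid-like cells. Tgm2, a transglutaminase of the family of protein 4.2, was at 283 ± 30.6 in macrophage-like, and F13a1, the A subunit of clotting factor XIII, at 649.8 ± 69.6 in monocyte-like cells. Icam2, an endothelial adhesion molecule, was at 239 ± 60.4 in endothelial-like cells. The most abundant paralogs in P3 erythroid-like cells were Tgm2 at 23.4 ± 7.22, Ank2 at 6.31 ± 1.37, Sptbn1 and Slc4a2 at 5.70 ± 1.47 CPM. From the lowest to the highest globin bin 6 of 11 tested paralogs were called higher and 1 lower at P3, led by Slc4a4 (4.88), F13a1 (4.64), Ank3 (4.57), Icam1 (3.32), Sptbn1 (2.98) and Ece1 (2.55, log2). At E16.5 it was 6 and 1 of 12, led by Slc4a4 (2.93), Tgm1 (2.29), Ank3 (1.95) and F13a1 (1.74), with Ank2 lower (-0.90). Several of these paralogs stood very low in P3 erythroid-like cells, with Slc4a4 at 0.230, F13a1 at 1.48 and Icam1 at 0.855 CPM. Between the stages 3 were higher at P3 (Icam2 1.26, Ank2 0.78 and Slc4a2 0.58) and 3 lower (Ank3 -2.02, Tgm1 -0.96 and F13a1 -0.83) of 12, and by genotype 0 of 13 were called. Of all genes 33.0% were called higher and 35.9% lower across bins at P3, 27.3% and 26.6% at E16.5, and 27.2% and 25.9% between the stages.

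Genotype was compared at E16.5, 2 homozygous libraries against the 3 without that label. No member differed beyond the spread between libraries. In erythroid-like cells Slc4a1 stood at 794 and 1520.2 CPM in the homozygous libraries and at 1410.0, 2274 and 710.2 in wild type 1, shared and heterozygous 1. Rhd stood at 323 and 385 against 393, 451 and 228. Kel, at 119 and 328 against 203, 447 and 169 in the same order, overlapped too. For 8 of 8 members the homozygous range overlapped the range of the others, and in CPM homozygous 1 was the lowest of the 5 libraries for Rhag, Icam4, Epb42, Sptb and Kel and the shared library the highest for 8 of 8. These ranks depend on globin in the total. Without it homozygous 1 was the lowest for 3 (Rhag, Icam4 and Kel) and the highest for Rhd, at 1033 CPM without globin, and the shared library the highest for 6, not for Rhd (824) or Icam4 (349 against 403 in heterozygous 1). The shared library had the lowest globin share of erythroid-like UMIs, 45.3% against 58.7% to 68.7% in the other 4 libraries.

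The log2 fold changes ran from -0.22 ± 0.24 (adjusted p = 1.00) for Icam4 to 0.29 ± 0.23 (adjusted p = 1.00) for Rhd (SE, edgeR). Within the middle globin bin alone Rhd stood at 1.06 ± 0.47 (adjusted p = 1.00), and no member was called there. Called members were 0 of 8, beside 0.0% of 13540 genes called, 120 genes at an unadjusted p under 0.05, and 4 called by DESeq2, none of them a member. In whole libraries 0 of 8 were called as well, beside 0.0% of 16262 genes, 166 at an unadjusted p under 0.05 and 5 by DESeq2. In simulated data of this design 9.62% of 2-fold and 71.9% of 4-fold changes were recovered, so a 2-fold difference would mostly have been missed. At P3 only C and D carry a usable label, 1 homozygous and 1 heterozygous, and no test is possible. With exact 95% Poisson intervals, which cover counting error only, Slc4a1 stood at 823 (814 to 831) CPM in C and 1141 (1130.1 to 1152) in D, Rhd at 545 (538 to 552) and 693 (685 to 702), and Kel at 97.8 (94.96 to 101) and 166 (162 to 170.0). Each of the 8 was lower in C than in D, and the share of all genes lower in C was not counted. Without globin in the total, A and B, of unclear genotype, were lower than C for every member but Rhag. Slc4a1 then stood at 790, 1075, 1329 and 1822 CPM in A to D.

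The other members followed the same pattern between libraries. Rhag, the partner of Rhd, ranged from 124 to 407 CPM over the 5 E16.5 libraries, with 124 and 281 in the homozygous ones, and from 127 to 176 CPM over the 4 P3 libraries. Icam4, the adhesion molecule, ranged from 87.6 to 191 CPM over the 5 E16.5 libraries, with 87.6 and 147 in the homozygous ones, and from 84.1 to 211 CPM over the 4 P3 libraries. Epb42, protein 4.2, ranged from 125 to 331 CPM over the 5 E16.5 libraries, with 125 and 215 in the homozygous ones, and from 58.8 to 158 CPM over the 4 P3 libraries. Ank1, ankyrin, ranged from 84.8 to 288 CPM over the 5 E16.5 libraries, with 88.5 and 167 in the homozygous ones, and from 87.0 to 244 CPM over the 4 P3 libraries. Sptb, beta-spectrin, ranged from 124 to 376 CPM over the 5 E16.5 libraries, with 124 and 246 in the homozygous ones, and from 113 to 340.2 CPM over the 4 P3 libraries. In each of these 5 the homozygous range overlapped the others, and the lowest P3 value belonged to library A, which had the highest globin share of the 4, 50.8%. Without globin in the total A was still the lowest for Icam4, Epb42, Ank1 and Sptb, but not for Rhag, at 257, 222, 207 and 281 CPM without globin in A to D.

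**Figure D4:**
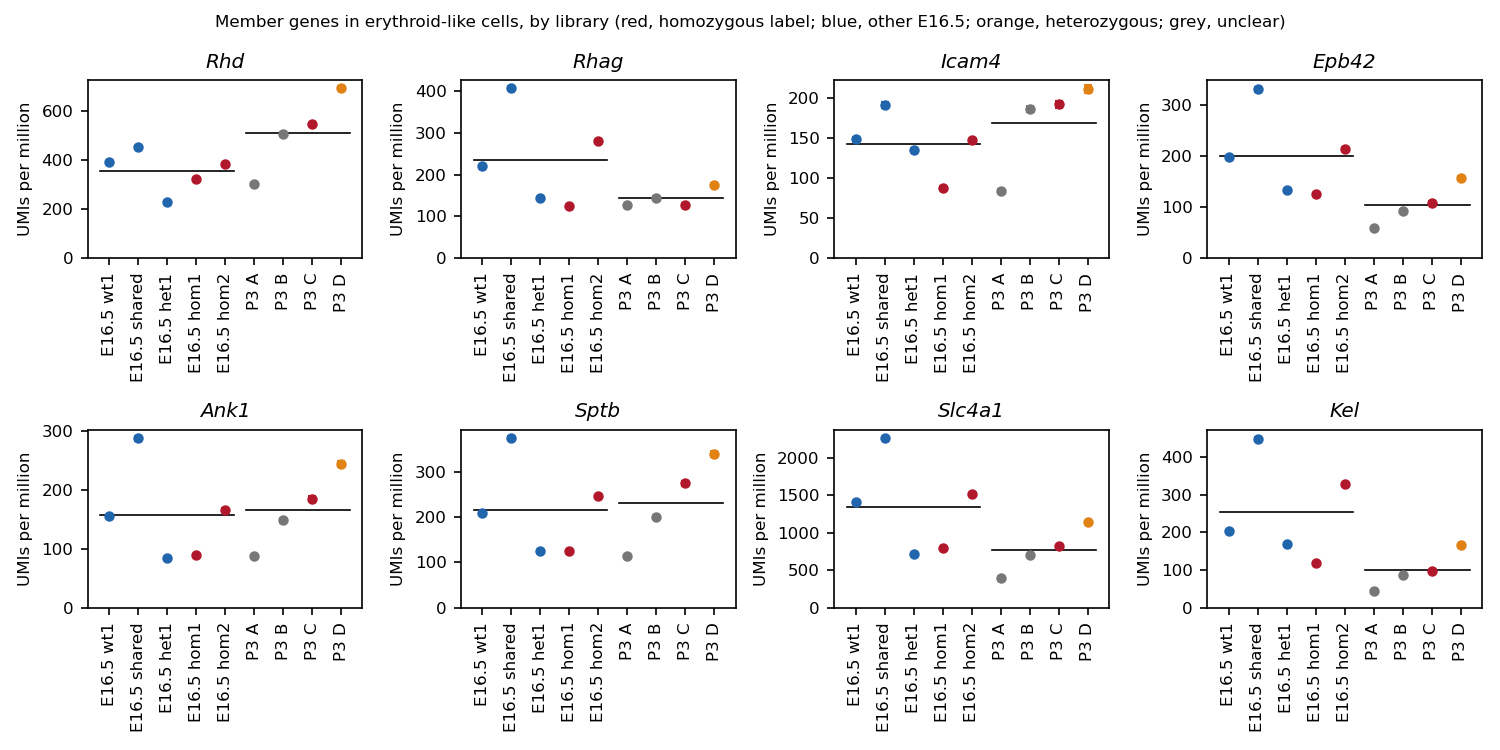
CPM of each member in erythroid-like cells of the 9 libraries, with exact 95% Poisson intervals and the mean of each stage as a line. At E16.5, with globin in the total as plotted, the shared library is highest for all 8 members and homozygous 1 (red) lowest for 5; without globin these counts are 6 and 3.

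P3 was compared with E16.5 in erythroid-like cells. Taken over the whole class, 5 members were lower at P3 and 0 higher, beside 53.1% of genes called, while within bins of globin share Rhd, Ank1 and Sptb were higher at P3 in each of the 3 bins tested. Slc4a1 stood at 389, 701, 823 and 1141 CPM in P3 libraries A to D and at 1410.0, 2274, 710.2, 794 and 1520.2 in E16.5 wild type 1, shared, heterozygous 1 and homozygous 1 and 2. Kel stood at 44.5, 86.8, 97.8 and 166 against 203, 447, 169, 119 and 328. The ranges of the stages overlapped for 8 of 8 members on the CPM scale. Without globin in the total they did not overlap for 4: Kel, at 90.4 to 265 CPM at P3 and 379 to 817 at E16.5, Epb42, at 119.6 to 252 and 399 to 605, Slc4a1, at 789.9 to 1822 and 2119 to 4155, and Rhag, at 207 to 281 and 395 to 744. The share of all genes whose ranges separate in this way was not counted. After TMM scaling Kel was lower, at a log2 fold change of -2.04 ± 0.31 (adjusted p = 2.52e-04), as were Epb42 at -1.64 ± 0.20 (adjusted p = 8.16e-05), Slc4a1 at -1.50 ± 0.25 (adjusted p = 4.90e-04), Rhag at -1.35 ± 0.18 (adjusted p = 1.32e-04) and Icam4 at -0.52 ± 0.20 (adjusted p = 0.0459) (SE, edgeR). Ank1 (-0.58 ± 0.23 (adjusted p = 0.0506)), Sptb (-0.58 ± 0.24 (adjusted p = 0.0585)) and Rhd (-0.23 ± 0.19 (adjusted p = 0.31)) did not pass. Lower calls made up 25.9% of 11919 genes and higher calls 27.2%, and the median of the 8 was -0.97 beside 0.02 for all genes. The call for Icam4 rested on single libraries: it was lost when any 1 of E16.5 wild type 1, heterozygous 1, homozygous 2, P3 A, P3 B or P3 C was left out (-0.34 to -0.56, adjusted p up to 0.102). At clustering resolution 0.5 Icam4 turned to 0.31 (adjusted p = 0.131), and Rhd, Ank1 and Sptb to 0.48, 0.15 and 0.19, none of them called; Kel, Epb42, Rhag and Slc4a1 were still called lower. Ank1 and Sptb were called lower without heterozygous 1, homozygous 1 or P3 D. Stage, digest, gene list and software release changed together and cannot be told apart.

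Within the middle bin, 4 members were higher at P3 and 0 lower, beside 55.1% of genes called, 26.3% higher and 28.9% lower: Rhd by 1.41 ± 0.38 (adjusted p = 0.00701), Icam4 by 1.20 ± 0.31 (adjusted p = 0.00484), Ank1 by 0.93 ± 0.23 (adjusted p = 0.00397) and Sptb by 0.89 ± 0.24 (adjusted p = 0.00631). Slc4a1 (0.43), Rhag (0.44), Epb42 (0.18) and Kel (-0.18) did not pass. In bin 2, beside 58.4% of genes called (28.2% higher and 30.2% lower), the same 4 were higher, and Kel (-0.93) and Rhag (-0.51) lower, Epb42 and Slc4a1 not passing. In bin 4, beside 62.6% (31.4% higher and 31.1% lower), 6 were higher and 0 lower, Kel and Icam4 not passing. Scaling by total counts, which moved the median of all genes to 0.71 and the share of higher calls from 51.2% to 86.7%, left 4 members lower, with Rhd at 0.50 and Kel at -1.38. A bin need not hold like cells at the 2 stages: in bin 2 the median globin share was 37.8% to 52.2% in the E16.5 libraries and 49.0% to 52.0% at P3, and neutrophil-like clusters held a median of 4.90% to 39.4% globin at E16.5 against 0.344% to 0.491% at P3. Bins 2 and 4 were added after the data were seen.

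**Figure D5:**
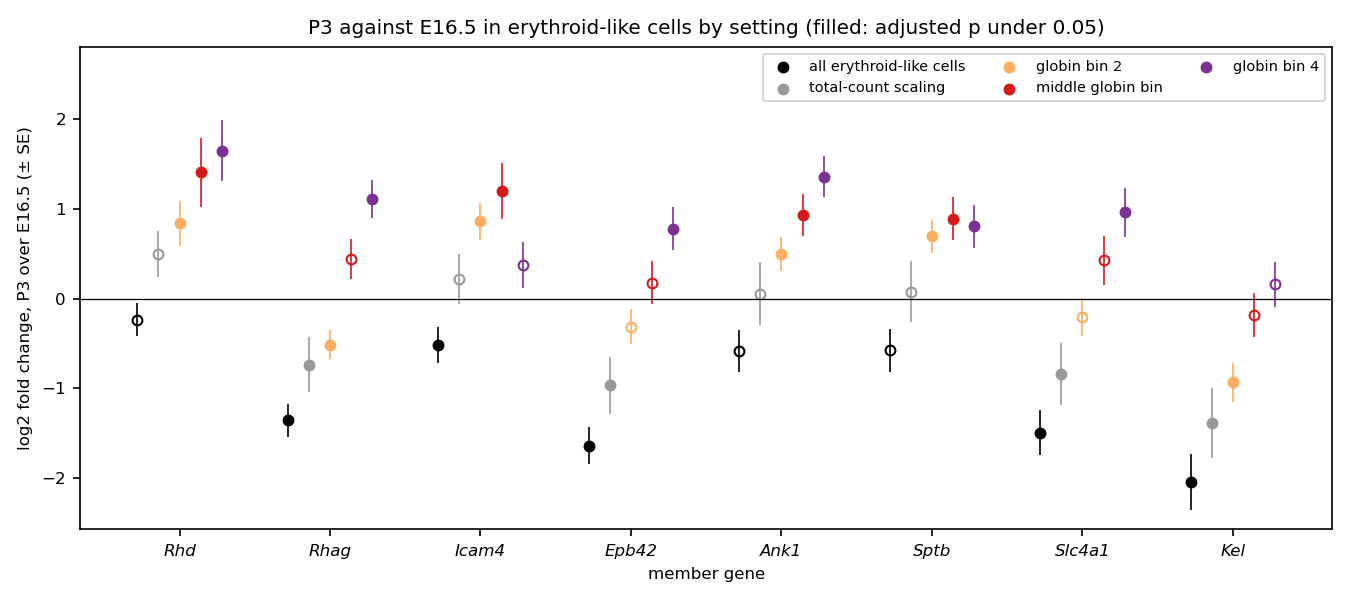
Log2 fold change of P3 over E16.5 for each member with its SE, over all erythroid-like cells (black), with total-count scaling (grey) and within globin bins 2, 3 and 4; filled points have an adjusted p under 0.05. Rhd moves from -0.23 over all cells to 1.41 in the middle bin, and Kel from -2.04 to -0.18.

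A list of 28 other red cell membrane and blood group genes was read beside the members. Among the abundant ones in erythroid-like cells at P3 were Bsg at 628 ± 154 CPM (SD, n = 4), Cd47 at 464 ± 134 and Ermap at 355 ± 129.9. At E16.5 Epb41 stood at 511 ± 169, Bsg at 448 ± 52.7 and Cd47 at 368 ± 104 CPM (SD, n = 5). From the lowest to the highest bin 19 of 27 tested rose and 3 fell at E16.5, and 19 rose and 5 fell at P3, with medians of 1.08 and 1.48. Over all genes 27.3% rose and 26.6% fell at E16.5, and 33.0% and 35.9% at P3, with medians of -0.08 and -0.23. Slc2a1, the glucose transporter of the red cell, rose by 6.97 at P3 and 2.15 at E16.5 on the log2 scale. Epb41, protein 4.1 of the spectrin junction, rose by 5.86 and 3.56. Mpp1, a membrane scaffold that binds protein 4.1, rose by 4.87 and 3.44. Ackr1, the Duffy blood group receptor, and Tmod1 rose by 3.66 and 3.18 at P3, and Cd59a, a complement inhibitor, by 2.58 at E16.5. Cd44, an adhesion receptor, fell at E16.5 (-1.85). Between stages 15 of 27 were lower at P3 and 1 higher, beside 25.9% and 27.2% of all genes, with Slc2a1 at -3.80, Cd59a at -2.01, Epb41 at -1.52, Xk, the partner of Kell, at -1.95, and the water channel Aqp1 the higher one at 1.67. By genotype 0 of 28 were called.

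The genes most like each member across globin bins were taken from 4465 genes with a mean of at least 20 CPM, by Pearson's r of log2(CPM without globin + 1). The 24 points at E16.5 and 20 at P3 share libraries and bins, so r is a description. Genes were ranked by r at E16.5 alone, and the order at P3 differs: among the members themselves r at P3 was 0.996 for Epb42 and Slc4a1, 0.986 for Ank1 and Kel and 0.976 for Rhd and Ank1. Most like Rhd were Cd47 (r = 0.94 at E16.5, 0.95 at P3), Mgll (r = 0.92 at E16.5, 0.92 at P3) and Ctse (r = 0.91 at E16.5, 0.91 at P3). Cd47, an integrin-associated protein, travels with the Rh complex in the red cell membrane. Most like Rhag were Tfrc (r = 0.97 at E16.5, 0.91 at P3), Atf7ip (r = 0.96 at E16.5, 0.86 at P3) and Tnrc6b (r = 0.96 at E16.5, 0.92 at P3); Tfrc is the transferrin receptor. Icam4 was closest to 6030468B19Rik (r = 0.93 at E16.5, 0.94 at P3), Atp6v0b (r = 0.91 at E16.5, 0.84 at P3) and Dlgap5 (r = 0.89 at E16.5, 0.92 at P3). Slc4a1 was closest to Ranbp10 (r = 0.99 at E16.5, 0.98 at P3), Tmod1 (r = 0.99 at E16.5, 0.96 at P3) and Hectd4 (r = 0.98 at E16.5, 0.97 at P3); Tmod1 caps the actin filaments of the skeleton. Epb42 was closest to Narf (r = 0.99 at E16.5, 0.99 at P3), Kctd20 (r = 0.99 at E16.5, 0.97 at P3) and Trak2 (r = 0.99 at E16.5, 0.99 at P3). Ank1 had Add2 (r = 0.98 at E16.5, 0.93 at P3), Zdhhc5 (r = 0.98 at E16.5, 0.85 at P3) and Sptb (r = 0.97 at E16.5, 0.96 at P3), and Add2 is the beta-adducin of the skeleton. Sptb had Gtpbp2 (r = 0.98 at E16.5, 0.75 at P3), Slc6a9 (r = 0.98 at E16.5, 0.94 at P3) and Ank1 (r = 0.97 at E16.5, 0.96 at P3), so the ankyrin and beta-spectrin genes were each among the other's 3. Kel was closest to Hace1 (r = 0.97 at E16.5, 0.98 at P3), Synj1 (r = 0.96 at E16.5, 0.97 at P3) and Gm33111 (r = 0.96 at E16.5, not listed at P3).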

How the data were processed

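The authors deposited UMI counts per gene and barcode, 1 matrix a sample, unnormalised whole numbers per the file headers (software 3.1.0 at E16.5, 3.0.2 at P3). The submitters' processing notes name Cell Ranger 2.1.1, R 4.1.2, Seurat and mm10; no order or role is given. Counting error only is covered by Poisson intervals on these counts.

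Members and gene lists were chosen with earlier results of these data known. Barcodes were kept at 1000 or more UMIs and at most 15% mitochondrial UMIs. Scrublet, run from scanpy 1.11.5, marked doublets in each library (4.11% to 13.4%) and these were removed. Each stage was clustered on 2000 variable genes without members, listed genes, mitochondrial or sex genes (30 components, 15 neighbours, Leiden resolution 1), and clusters named from fixed markers; names are rebuilt, not the authors'. Counts were summed per library and class (at least 50 cells) and tested with edgeR 4.0.16 (TMM, quasi-likelihood, Benjamini-Hochberg over all genes tested, threshold 0.05), with DESeq2 1.42.0 as an alternative; the tests were run on simulated data. The 5 globin bins share their edges over all libraries (33.2, 61.1, 73.4 and 80.1% globin, the average of each library's own 5-part division), so they hold unequal numbers of cells, and a bin under 50 cells was left out of its library. The rule for named genes took all 8 members, and of the 2 lists at most 6 called by size and the 4 most abundant; a gene of these is not reported here. P3 heterozygous 2 and homozygous 2, which share barcodes with other P3 matrices, were left out. Labels describe separate animals. Replicate numbers are not stated to mark a litter or batch.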

Additional observations from a re-analysis of the deposited data

Results flagged for a closer look

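The change from the lowest to the highest globin bin differed between the stages for 4 members, beside 31.8% of 12727 genes, by a test of the difference itself (edgeR, log2, P3 minus E16.5). It was 1.84 for Slc4a1, 1.50 for Epb42, 1.03 for Rhag and -0.98 for Icam4. The lowest bin had a far smaller globin share at P3 than at E16.5, and members stood at a high level in non-erythroid cells at E16.5; the part of either in the difference was not tested. In 16 sets of libraries (8 members at 2 stages) no erythroid-like level stood apart from the rest of its stage by Dixon's criterion, which chance meets in about 1 in 20.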

How the results depend on the processing

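Of the counts of called members, those that moved by over 1.5 times or turned direction were, for P3 against E16.5 with middle globin bin, 4 called, 4 higher and 0 lower; for P3 against E16.5 with globin bin 2, 6 called, 4 higher and 2 lower; for P3 against E16.5 with globin bin 4, 6 called, 6 higher and 0 lower; for highest against lowest bin at E16.5 with total-count scaling, globin left out, 3 higher and 1 lower; for highest against lowest bin at E16.5 with Leiden resolution 0.5, 2 lower; for highest against lowest bin at P3 with Leiden resolution 0.5, 5 called and 4 higher; for highest against lowest bin at P3 with total-count scaling, globin left out, 5 called and 4 higher; for highest against lowest bin at P3 with DESeq2, 0 lower; for highest against lowest bin at P3 with RLE normalisation, 0 lower; for highest against lowest bin at P3 with P3 C and D only, 0 lower; for highest against lowest bin at P3 with globin kept in the totals, 0 lower. Leaving out each library in turn gave 4 to 7 called for P3 against E16.5, 5 to 7 called for highest against lowest bin at E16.5, 0 to 1 lower for highest against lowest bin at P3. Without P3 B or without P3 D the 1 lower call at P3, Icam4, was lost. Of all genes, the P3 bin contrast called 68.0% (Leiden resolution 0.5), 84.0% (total-count scaling, globin left out), 59.7% (DESeq2) and 65.9% (RLE). It called 52.2% with P3 C and D only and 62.8% with globin kept. The E16.5 bin contrast called 38.8% (Leiden resolution 0.5) and 72.1% (total-count scaling, globin left out). With 1 library left out, the lowest and highest shares for stage were 46.3% and 52.1%. For the E16.5 bins they were 35.4% and 63.6%, for the P3 bins 58.2% and 65.3%. The single-gene values below leave out the whole-library genotype comparison. In it Kel ran from -0.658 to 0.497 and Rhag from -0.590 to 0.381 over the settings. Single members also turned sign in their log2 fold change. By genotype none of them passed the test in either setting. For P3 against E16.5 some passed on both sides. Rhag, Epb42 and Slc4a1, called lower over the whole class, were called higher in globin bin 4. Icam4, also called lower over the whole class, was called higher in globin bin 2 and in the middle bin. The members that turned sign were: For homozygous against others, erythroid-like with total-count scaling, Rhd -0.0125. For homozygous against others, erythroid-like with Leiden resolution 0.5, Rhag 0.0110, Epb42 0.0546, Sptb 0.0800, Slc4a1 0.101 and Kel 0.0716. For homozygous against others, erythroid-like with middle globin bin, Rhag 0.491, Icam4 0.510, Epb42 0.148, Ank1 0.235, Sptb 0.278, Slc4a1 0.248 and Kel 0.384. For homozygous against others, erythroid-like with DESeq2, Slc4a1 0.00226 and Kel 0.00985. For homozygous against others, erythroid-like with RLE normalisation, Slc4a1 0.00226 and Kel 0.00986. For P3 against E16.5 with Leiden resolution 0.5, Rhd 0.477, Icam4 0.310, Ank1 0.149 and Sptb 0.188. For P3 against E16.5 with middle globin bin, Rhd 1.41, Rhag 0.444, Icam4 1.20, Epb42 0.178, Ank1 0.932, Sptb 0.887 and Slc4a1 0.425. For P3 against E16.5 with total-count scaling, Rhd 0.498, Icam4 0.221, Ank1 0.0558 and Sptb 0.0783. For P3 against E16.5 with globin bin 2, Rhd 0.836, Icam4 0.860, Ank1 0.498 and Sptb 0.691. For P3 against E16.5 with globin bin 4, Rhd 1.64, Rhag 1.11, Icam4 0.372, Epb42 0.779, Ank1 1.35, Sptb 0.802, Slc4a1 0.958 and Kel 0.158. For highest against lowest bin at E16.5 with Leiden resolution 0.5, Rhd -0.0149, Rhag -0.410 and Icam4 -0.356. For highest against lowest bin at E16.5 with no low-count filter, Rhag -0.00978. For highest against lowest bin at E16.5 with total-count scaling, globin left out, Rhag -0.618 and Icam4 -0.245. Over the libraries left out, the members that turned sign ranged from -0.457 to 0.303 for Rhag (homozygous against others, erythroid-like), from -0.242 to 0.115 for Epb42 (homozygous against others, erythroid-like), from -0.368 to 0.122 for Ank1 (homozygous against others, erythroid-like), from -0.324 to 0.240 for Sptb (homozygous against others, erythroid-like), from -0.275 to 0.239 for Slc4a1 (homozygous against others, erythroid-like), from -0.601 to 0.445 for Kel (homozygous against others, erythroid-like), from -0.0958 to 0.214 for Rhag (highest against lowest bin at E16.5). Same-numbered homozygous and other libraries correlated at 0.276, 0.00764 and 0.254, and differently numbered ones at -0.276, -0.00764 and -0.254. The 2 homozygous libraries were centred on their mean, so these values mirror each other and cannot decide whether the numbers pair libraries. The main tests used no pairing. With the replicate block, called members were 0, 0 and 4 for genotype in erythroid-like cells, genotype in whole libraries and stage, and all genes called 0, 0 and 6414. The bin contrasts already block on the library. Values that kept side and direction were 197 counts and 378 single-gene values. 32 single-gene values lost and 13 gained a call. Slc4a1, Epb42 and Kel rose across bins, and passed, in 13 of 13 settings at both stages. Genes called over all genes by genotype were 14 without the low-count filter and 7 without homozygous 2. The causes were not tested. Total-count scaling, bins 2 and 4, and P3 C and D only for the bins were chosen after the data were seen.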
